A study of Homo sapiens with 16 samples.

Results

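The genes described here were 10 immediate-early and activator protein 1 (AP-1) genes: FOS, FOSB, FOSL1 and FOSL2 of the FOS family, JUN, JUNB and JUND of the JUN family, and ATF3, EGR1 and IER3. They were chosen by name from the 57820 genes in the deposited tables, and each was found once by its Ensembl identifier. All 10 passed the filter on low counts in both serum conditions and were among the 16069 protein-coding genes tested in low serum and the 15414 tested in standard serum.

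AP-1 is a dimer of basic leucine zipper proteins in which a JUN protein pairs with a FOS protein, with another JUN protein or with a protein of the ATF family. FOS, FOSB, JUN, JUNB, ATF3 and EGR1 belong to the immediate-early genes, which growth factors, serum, stress and handling of cells switch on within minutes through MAP kinases, serum response factor (SRF) and CREB, without new protein synthesis. FOSL1 (FRA-1) and FOSL2 (FRA-2) lack the strong transactivation domain of FOS, accumulate later, and FOSL1 in particular is known for its abundance in mesenchymal, invasive breast cancer cells. EGR1 is a zinc finger factor outside AP-1, and IER3 is an immediate-early gene whose product acts on cell survival and is not a transcription factor.

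Both MDA-MB-231 and MDA-MB-436 are established lines from human triple-negative breast cancer (TNBC), that is, cancer without oestrogen and progesterone receptors or ERBB2 amplification, and both are mesenchymal. Both had been stably transfected with the 7TGP plasmid, in which Tcf-binding sites drive eGFP and which also carries puromycin resistance, and were sorted repeatedly by flow cytometry into an eGFP-positive line (7TGP-POS) and an eGFP-negative line (7TGP-NEG). Each of these 4 lines was grown in low serum (0.5% FBS, harvested on day 3) and in standard serum (10% FBS, harvested on day 6), with 2 biological replicates, which gave 8 groups and 16 RNA-seq libraries. Every group therefore carried the reporter and had been through puromycin selection and sorting. Each sorted line existed once, so replicates were cultures of that line, and a difference between 7TGP-POS and 7TGP-NEG cannot be told apart from a difference between these particular sorted populations.

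Per the study's methods, the low serum libraries were depleted of ribosomal RNA and the standard serum libraries were selected for polyadenylated RNA, on different sequencers, whereas the sample labels name the polyA kit for all libraries. Serum, days in culture, library kit and sequencer cannot be told apart, so values from the serum conditions stand side by side and no test was run between them. The methods also give a different medium for each cell line, so cell line and medium cannot be told apart either. Cells were detached by scraping in PBS, a step shared by all groups.

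Libraries held 27918418 to 32667756 counts in low serum and 31827130 to 46044073 in standard serum, and the 10 genes had between 83 and 12495 counts in a library. Replicates correlated at r = 0.994 to 0.997 across genes on the log2 CPM scale. In standard serum the replicates of MDA-MB-436 7TGP-POS stood apart: their log2 ratio correlated with gene GC content (r = 0.607 across genes, against -0.253 to 0.129 in the other 7 groups), and IER3, JUNB, JUND and JUN were 2.84, 2.04, 1.56 and 1.37 times as high in replicate 2 as in replicate 1. Among the defining markers CDH1, PGR and ESR1 were near 0. The 3 receptor genes ESR1, PGR and ERBB2 together reached 53.6 to 132 CPM in a library, so ERBB2 RNA was present. The 9 epithelial markers, of which CDH1 is one, together reached 646 to 1929 CPM. By contrast, 6 immune and endothelial markers together reached 3.29 to 13.9 CPM.

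Levels of different genes are compared here only in TPM, which the authors adjusted for transcript length. FOSL1 was the most abundant FOS gene in every library, with 92.1 to 199.6 TPM in low serum and 302.2 to 672.8 TPM in standard serum. FOSL2 followed with 64.5 to 133.4 TPM in low serum and 62.1 to 121.2 TPM in standard serum. FOS itself, the classical serum-induced gene, had 6.57 to 14.1 TPM in low serum and 13.5 to 59.3 TPM in standard serum, and FOSB was the lowest of the 10 genes with 1.14 to 2.13 TPM and 2.06 to 7.58 TPM.

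Among the JUN genes, JUNB had 163.8 to 482.5 TPM in low serum and 145.2 to 524.9 TPM in standard serum. JUND, the constitutively transcribed member, had 122.9 to 231.2 TPM and 100.4 to 288.6 TPM. JUN had 88.1 to 141.2 TPM and 124.8 to 281.9 TPM. In low serum the JUN range lay below that of JUNB, and JUND overlapped both. In standard serum the ranges of the 3 JUN genes overlapped.

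**Figure D1:**
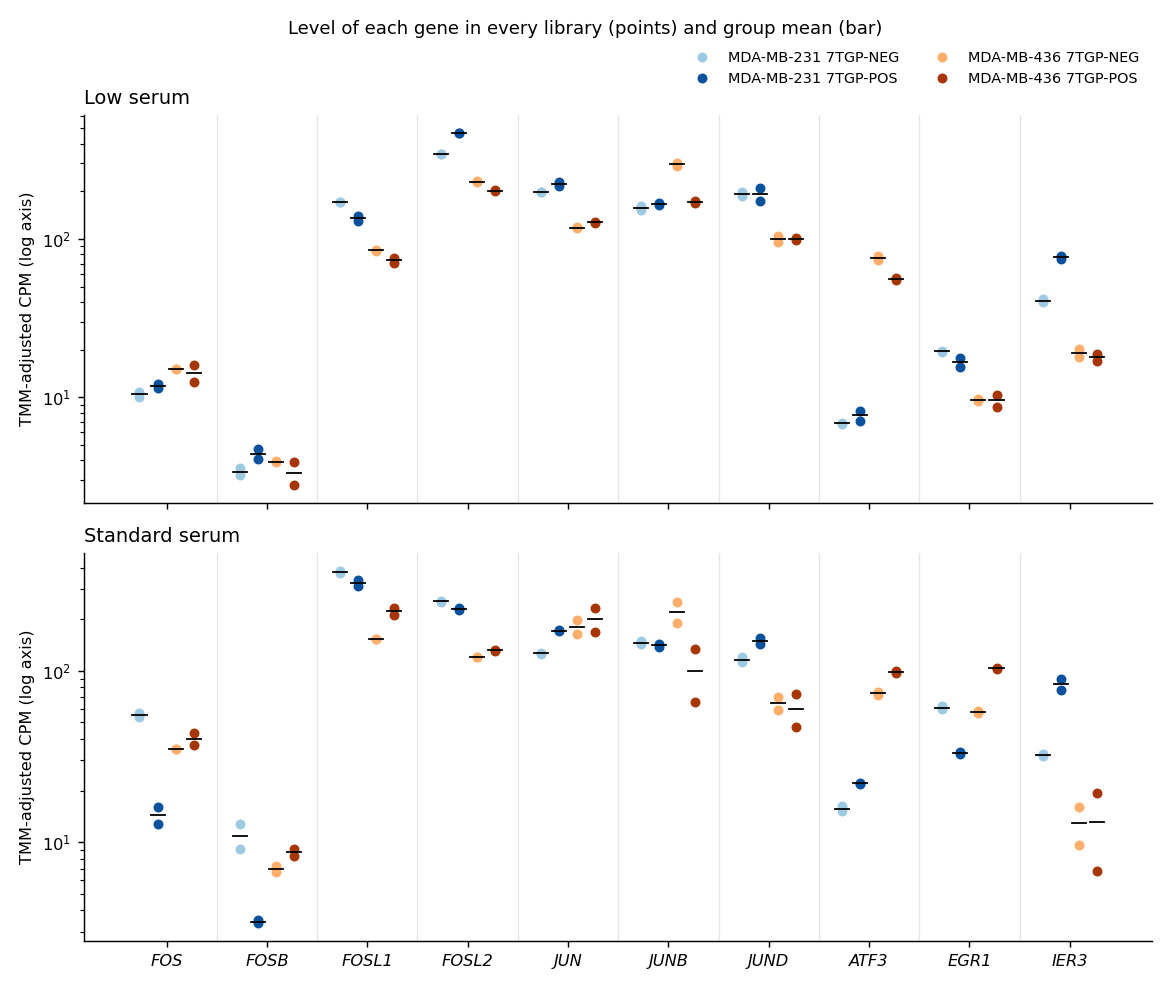
Level of each of the 10 genes in TMM-adjusted CPM (log axis) in low serum (top) and standard serum (bottom). Points are libraries, 2 per group, and bars are group means. In standard serum, FOS, FOSB and EGR1 lay lower in MDA-MB-231 7TGP-POS than in the 3 other groups, and the 2 MDA-MB-436 7TGP-POS points for JUNB and IER3 lay far apart.

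As a share of the summed FOS-family TPM, FOSL1 took 50.6 to 63.8% (group means) in low serum and 73.8 to 82.3% in standard serum. FOSL2 took 33.5 to 46.2% in low serum and 12.3 to 15.3% in standard serum. In low serum, FOSL1 held 63.8 ± 0.02% (SD, n = 2) of the family in MDA-MB-231 7TGP-NEG and 50.6 ± 1.17% in MDA-MB-231 7TGP-POS, while FOSL2 held 33.5 ± 0.07% and 46.2 ± 1.04%. The difference between these lines was larger than the spread of the replicates. FOS held at most 9.78% of the family as a group mean, and in MDA-MB-231 in standard serum its share was 6.73 ± 0.36% in 7TGP-NEG and 2.14 ± 0.45% in 7TGP-POS.

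JUNB held the largest share of the JUN genes in both MDA-MB-436 lines in low serum and in the 7TGP-NEG cells of both lines in standard serum. In low serum its share was 64.7 ± 0.05% (SD, n = 2) in MDA-MB-436 7TGP-NEG and 50.7 ± 0.26% in 7TGP-POS cells. In standard serum it was 57.5 ± 1.72% and 36.4 ± 5.72%, and JUN then held 41.7 ± 5.03% in 7TGP-POS. In MDA-MB-231 in low serum, JUND held 41.4 ± 0.28% in 7TGP-NEG and 39.2 ± 2.91% in 7TGP-POS, slightly above JUNB with 34.6 ± 0.40% and 35.1 ± 2.68%. The shares rest on the deposited TPM, and the order of FOSL1 and FOSL2 turned without the length adjustment. By raw counts FOSL2 was the largest FOS gene in all 4 low serum groups, with 64.8 to 75.6% against 21.8 to 32.6% for FOSL1. FOSL1 stayed largest in standard serum with 48.7 to 56.8%. The JUN genes also changed order in MDA-MB-231. In low serum JUN then led with 36.2% in 7TGP-NEG and 38.5% in 7TGP-POS, above JUND with 35.2% and 32.9%. With standard serum JUN led in the 7TGP-POS cells of this line, at 37.1% by counts against 24.6% by TPM. In the remaining groups the largest JUN gene stayed the same.

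**Figure D2:**
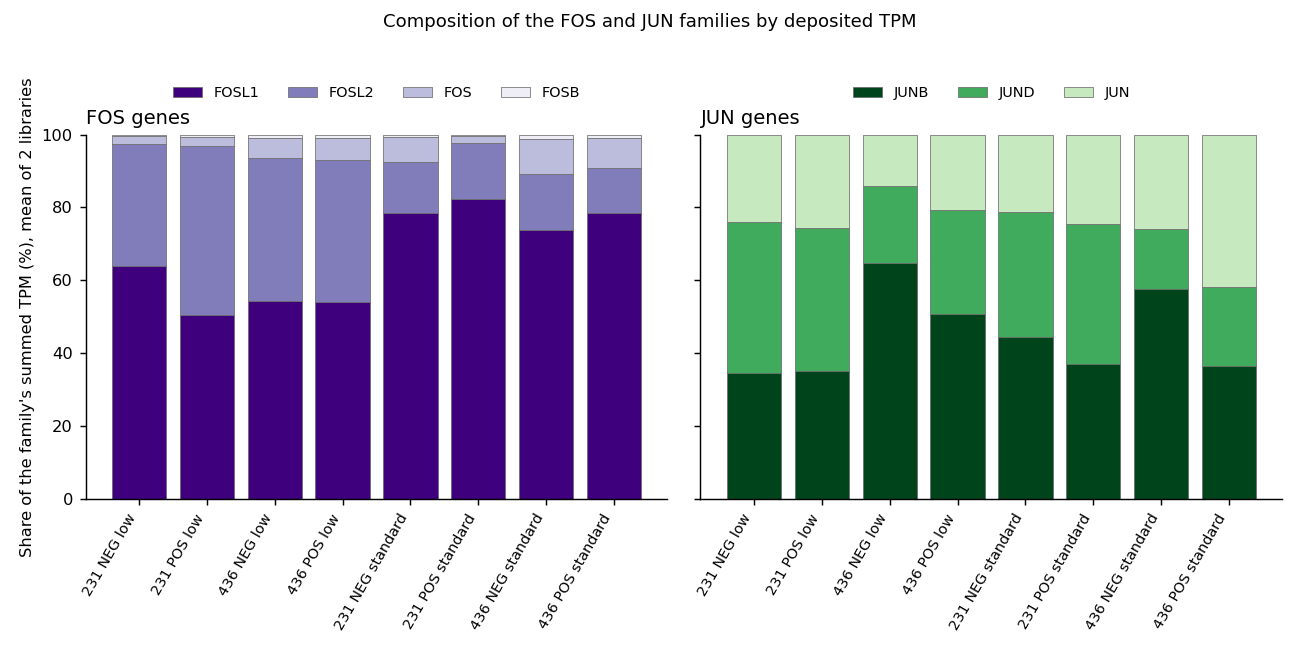
Share of the family's summed TPM (%, mean of 2 libraries) held by each FOS gene (left) and each JUN gene (right) in the 8 groups, on axes from 0 to 100. FOSL1 was the largest part of every FOS bar, and JUNB was largest in the MDA-MB-436 7TGP-NEG bars, at 64.7% and 57.5%.

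The first comparison asked how the 10 genes differed between reporter-positive and reporter-negative cells of one line. Within genes, levels are given in CPM, counts scaled to a common library total over the tested genes and adjusted by TMM factors, and log2 fold changes and adjusted p come from edgeR's quasi-likelihood test, adjusted by Benjamini-Hochberg over all tested genes. A gene passed the test with an adjusted p under 0.05, and a DEG also changed by 1 or more on the log2 scale. In these bulk samples, fewer cells that transcribe a gene and less RNA per cell cannot be told apart.

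In standard serum, MDA-MB-231 7TGP-POS cells had lower FOS, FOSB and EGR1 than MDA-MB-231 7TGP-NEG cells, with 3.84-fold, 3.16-fold and 1.84-fold lower levels, and higher ATF3. Of the 10 genes, 5 passed the test, 1 higher and 4 lower, against a background of 33.0% of all tested genes that passed (16.8% higher and 16.2% lower). The 2 DEGs, FOS and FOSB, were both lower, where 7.69% of all tested genes were DEGs and 2.72% were DEGs in that direction.

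FOS (chr14:75745529-75748933, plus strand, GRCh37) encodes the prototype partner of the JUN proteins. In standard serum it had 57.0 and 53.9 CPM in the 2 replicates of MDA-MB-231 7TGP-NEG and 12.8 and 16.1 CPM in those of MDA-MB-231 7TGP-POS. The groups were far apart, and the log2 fold change was -1.94 ± 0.11 (SE, adjusted p = 5.80e-10).

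FOSB (chr19:45971253-45978437, plus strand) is a close relative of FOS with the same rapid induction. It had 9.11 and 12.7 CPM in MDA-MB-231 7TGP-NEG and 3.36 and 3.52 CPM in MDA-MB-231 7TGP-POS. The groups did not overlap, and the log2 fold change was -1.66 ± 0.16 (adjusted p = 2.87e-07).

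EGR1 (chr5:137801168-137804992, plus strand), a zinc finger factor induced through SRF, had 59.5 and 62.2 CPM in MDA-MB-231 7TGP-NEG and 32.6 and 33.6 CPM in MDA-MB-231 7TGP-POS. Replicates lay close to each other beside the gap between the lines, and the log2 fold change was -0.88 ± 0.08 (adjusted p = 6.98e-08). FOS, FOSB and EGR1 stayed lower with each of the 8 libraries of the serum condition left out in turn and by every other method tried, with FOS between -2.12 and -1.79.

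The bases before the start sites of FOS, FOSB and EGR1 are shown because these 3 genes moved together in standard serum, and those of JUN because its value there had the opposite sign and did not pass. The sequences are the 150 bases upstream of the RefSeq start, 5′ to 3′ on the gene's strand, from the GRCh38.p14 assembly. Capitals mark the CREB core motif TGACG or its reverse complement CGTCA, the AP-1 and ATF element TGACATCA of the JUN promoter, and CArG boxes, the binding motif of SRF. The windows are chr14:75278678-75278827 (plus) for FOS, chr19:45467846-45467995 (plus) for FOSB, chr5:138465329-138465478 (plus) for EGR1 and chr1:58784048-58784197 (minus) for JUN.
FOS: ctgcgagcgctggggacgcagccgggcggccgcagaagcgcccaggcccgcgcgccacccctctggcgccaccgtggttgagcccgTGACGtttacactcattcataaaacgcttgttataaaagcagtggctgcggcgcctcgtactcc
FOSB: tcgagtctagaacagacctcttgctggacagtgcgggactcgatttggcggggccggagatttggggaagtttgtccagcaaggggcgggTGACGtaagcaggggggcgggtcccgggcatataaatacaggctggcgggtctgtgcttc
EGR1: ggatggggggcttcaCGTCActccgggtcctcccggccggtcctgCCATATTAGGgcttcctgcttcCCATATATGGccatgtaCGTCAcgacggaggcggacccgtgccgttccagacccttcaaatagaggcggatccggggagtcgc
JUN: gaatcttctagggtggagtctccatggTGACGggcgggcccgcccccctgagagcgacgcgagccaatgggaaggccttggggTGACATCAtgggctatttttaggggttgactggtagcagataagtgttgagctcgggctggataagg

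The FOS and FOSB windows each held a CREB core motif at nearly the same place, its first base at -64 in FOS and -60 in FOSB relative to the start. EGR1 had CREB core motifs at -135 and -66 and CArG boxes at -105 and -83. JUN had a CREB core motif at -123 and the TGACATCA element at -67. Of the 10 genes, 8 had an entry in the promoter table (9 entries, ATF3 with 2), and FOSL1 and IER3 had none.

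TGACG, searched on both strands, was present in 7 of the 9 entries, where 15.4% of the 35116 promoters of the table held it in the same window. The full CREB site TGACGTCA and the consensus AP-1 site TGACTCA were in none of the 9 entries (1.4% and 2.89% of all promoters). TGACATCA was in JUN and in 1 ATF3 entry (1.96% of all), a CArG box in EGR1 alone (0.769%), and the Tcf motif ATCAAAG in none (1.29%). A longer motif can overlap a shorter one, a match is a string of letters and not a bound site, and sites farther upstream than 150 bases were not searched.

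ATF3 (chr1:212738676-212794119, plus strand), a stress-induced bZIP factor that often represses, had 16.2 and 15.1 CPM in standard serum in MDA-MB-231 7TGP-NEG and 21.8 and 22.3 CPM in 7TGP-POS. The groups did not overlap, and the log2 fold change was 0.49 ± 0.09 (adjusted p = 1.72e-04), opposite in sign to FOS, FOSB and EGR1. FOSL1 (chr11:65659520-65668044, minus strand) had 372 and 384 CPM in 7TGP-NEG and 340.3 and 311 CPM in 7TGP-POS, a log2 fold change of -0.21 ± 0.07 (adjusted p = 0.0347). That call was lost without either MDA-MB-231 7TGP-NEG replicate (adjusted p = 0.105 and 0.199) or without MDA-MB-231 7TGP-POS replicate 2 (adjusted p = 0.25).

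IER3 (chr6:30710976-30712325, minus strand) had the largest higher value among the 10 genes in MDA-MB-231 in standard serum but did not pass the test. It had 31.7 and 32.6 CPM in 7TGP-NEG and 77.2 and 89.4 CPM in 7TGP-POS, which do not overlap, with a log2 fold change of 1.37 ± 0.53 (adjusted p = 0.132). The fit shares 1 estimate of spread with MDA-MB-436, where IER3 had 6.82 and 19.4 CPM in the 7TGP-POS replicates. Fitted on the 4 MDA-MB-231 libraries alone, the adjusted p was 8.71e-08, and without MDA-MB-436 7TGP-POS replicate 1 or replicate 2 it was 0.0215 or 0.0211.

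The JUN genes showed the same dependence. JUN (chr1:59242517-59249720, minus strand), the strongest transactivator of its family, had 128 and 125 CPM in MDA-MB-231 7TGP-NEG and 171 and 172 CPM in 7TGP-POS (log2 fold change 0.44 ± 0.15, adjusted p = 0.0735, and 5.47e-06 in the 4 MDA-MB-231 libraries alone). JUND (chr19:18390504-18392432, minus strand) had 112 and 121 CPM in 7TGP-NEG and 144 and 157 CPM in 7TGP-POS (0.37 ± 0.22, adjusted p = 0.291, and 1.53e-04 alone). The call on both changed with the MDA-MB-436 libraries in the fit: without MDA-MB-436 7TGP-POS replicate 1 or 2 the adjusted p was 0.00123 or 0.00118 for JUN and 0.0097 or 0.00944 for JUND, and JUN also passed without MDA-MB-436 7TGP-NEG replicate 1 or 2 (0.0488 and 0.0483).

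JUNB (chr19:12902300-12904129, plus strand), which restrains JUN in many settings, had 143 and 149 CPM in MDA-MB-231 7TGP-NEG and 138 and 144 CPM in 7TGP-POS. These ranges overlapped, and the log2 fold change was -0.05 ± 0.37. FOSL2 (chr2:28615315-28640184, plus strand) had 258 and 251 CPM in 7TGP-NEG and 231 and 228 CPM in 7TGP-POS (-0.15, adjusted p = 0.105). With either MDA-MB-436 7TGP-POS replicate left out, FOSL2 passed the test (adjusted p = 0.0209 and 0.0206).

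In low serum the pattern in MDA-MB-231 was different in its members and smaller in size. MDA-MB-231 7TGP-POS cells had higher IER3, FOSL2 and JUN and lower FOSL1 and EGR1 than 7TGP-NEG cells. These were 3 genes higher and 2 lower of the 10, where 38.9% of all tested genes passed (19.0% higher and 19.9% lower). None of the 10 was a DEG, where 5.9% of all tested genes were. The call for EGR1 was weak and those for FOSL2 and JUN depended on the scaling.

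IER3 in low serum had 40.0 and 41.7 CPM in MDA-MB-231 7TGP-NEG and 77.8 and 75.2 CPM in 7TGP-POS. The groups were well separated, and the level was 1.87-fold higher in 7TGP-POS (log2 fold change 0.91 ± 0.06, adjusted p = 4.7e-15). The value was 0.70 with deposited TPM, and it passed the test under all alternatives.

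FOSL2 had 341.8 and 342.1 CPM in MDA-MB-231 7TGP-NEG and 468 and 466 CPM in 7TGP-POS, a log2 fold change of 0.45 ± 0.05 (adjusted p = 1.6e-10). FOSL1 moved the other way, from 172.0 and 171.7 CPM to 139.6 and 130.4 CPM (-0.35 ± 0.05, adjusted p = 5.1e-07). JUN had 198.4 and 197.9 CPM in 7TGP-NEG and 230.0 and 216.7 CPM in 7TGP-POS (0.17 ± 0.05, adjusted p = 0.00405). Within each of these genes the groups did not overlap.

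Scaling mattered in low serum. With deposited TPM, log2 fold changes were lower than with TMM across the 12970 tested genes at a mean of 1 CPM or more. The median shifts were -0.20 in MDA-MB-231 and -0.25 in MDA-MB-436. Of the genes that passed in MDA-MB-231, 19.8% rather than 49.0% were higher. FOSL2 then had 0.25 and missed the test (adjusted p = 0.0652 to 0.0788) and JUN had -0.03, while FOSL1 and IER3 kept their calls. In MDA-MB-436 in low serum, 23.4% rather than 51.2% of the genes that passed were higher. The JUN and FOSL2 calls in MDA-MB-231 therefore hold under TMM scaling only. Which scaling is nearer to the RNA amounts in the cells was not tested.

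EGR1 in low serum had 19.7 and 19.4 CPM in MDA-MB-231 7TGP-NEG and 17.8 and 15.4 CPM in 7TGP-POS (-0.23 ± 0.09, adjusted p = 0.0485). The call was lost when any library other than MDA-MB-231 7TGP-POS replicate 1 was left out (adjusted p = 0.051 to 0.372). FOS, at 10.8 and 9.99 CPM in 7TGP-NEG and 11.4 and 12.1 CPM in 7TGP-POS, had a log2 fold change of 0.17 ± 0.11 (adjusted p = 0.244), and FOSB, at 3.22 and 3.56 CPM against 4.72 and 4.10 CPM, had 0.38 ± 0.17 (adjusted p = 0.0813). Neither FOS nor FOSB passed in low serum. Their values had the opposite sign to those in standard serum, a contrast that was not tested.

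The remaining genes of MDA-MB-231 in low serum did not pass. JUNB had 152 and 161 CPM in 7TGP-NEG and 163 and 169 CPM in 7TGP-POS (log2 fold change 0.08). JUND had 188 and 197 CPM against 209 and 175 CPM (-0.01), and the 7TGP-POS replicates enclosed those of 7TGP-NEG. ATF3 was low in both, with 6.78 and 6.93 CPM against 7.12 and 8.24 CPM (0.16, adjusted p = 0.267).

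**Figure D3:**
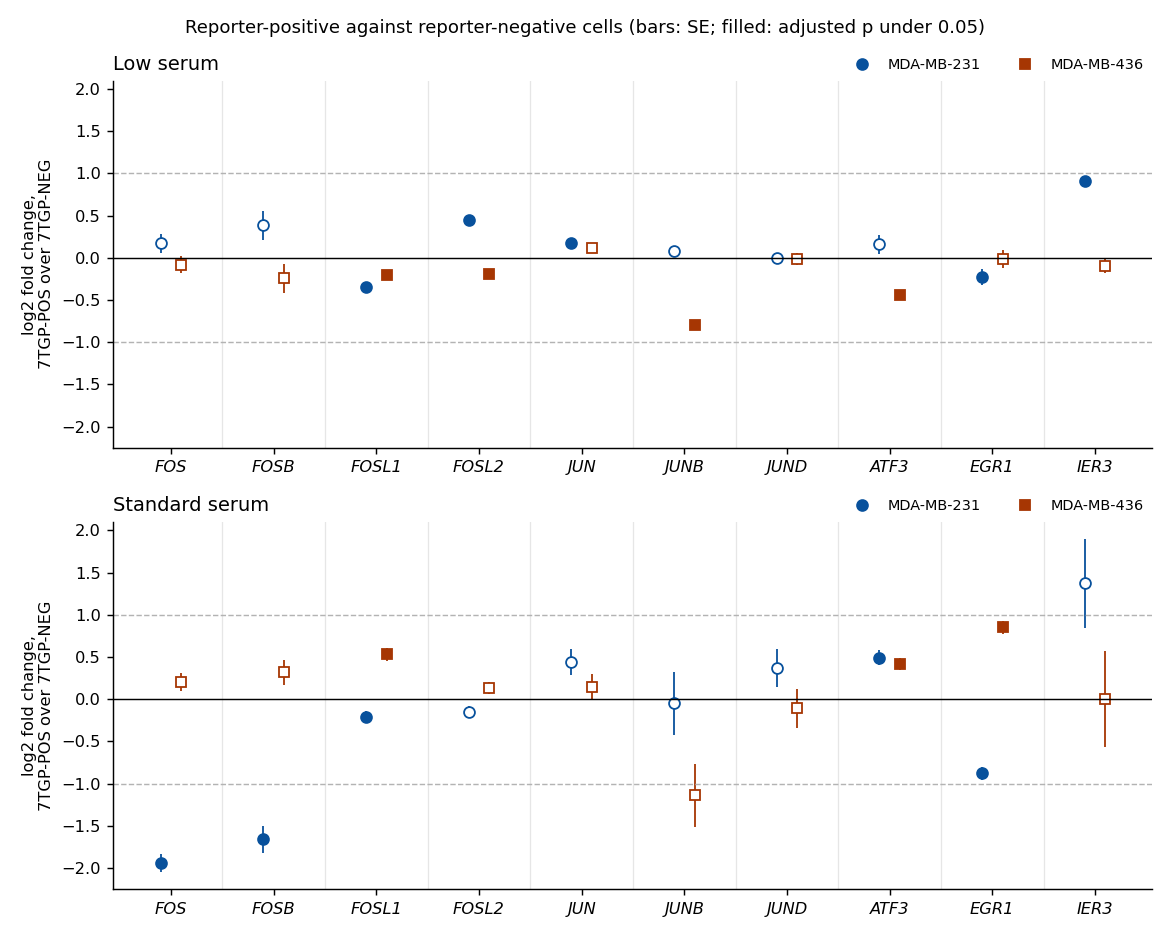
Log2 fold change of 7TGP-POS over 7TGP-NEG for each gene in MDA-MB-231 (circles) and MDA-MB-436 (squares), in low serum (top) and standard serum (bottom). Bars are standard errors, filled symbols have an adjusted p under 0.05, and dashed lines mark an absolute log2 fold change of 1. FOS at -1.94 and FOSB at -1.66 in MDA-MB-231 in standard serum were the only filled symbols beyond the dashed lines.

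In MDA-MB-436, JUNB was lower in 7TGP-POS cells in low serum, 1.73-fold, together with ATF3, FOSL1 and FOSL2, while in standard serum EGR1, FOSL1 and ATF3 were higher. In low serum 4 of the 10 genes passed, all lower, where 52.0% of all tested genes passed (25.3% lower). In standard serum 3 of the 10 passed, all higher, where 49.5% passed (26.1% higher). No gene of the 10 was a DEG in either condition, where 10.5% and 12.5% of all tested genes were.

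JUNB in low serum had 289 and 303 CPM in MDA-MB-436 7TGP-NEG and 174 and 168 CPM in 7TGP-POS. The groups were far apart, and the log2 fold change was -0.79 ± 0.05 (adjusted p = 3.5e-17). The 50 nearest tested genes on chromosome 19 had a median log2 fold change of -0.40 in the same comparison, with JUNB below it, and the part of this region in the result was not tested.

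In standard serum JUNB had 190.4 and 251 CPM in MDA-MB-436 7TGP-NEG and 66.1 and 135 CPM in 7TGP-POS. All 7TGP-POS values lay below all 7TGP-NEG values, yet the log2 fold change of -1.14 ± 0.38 missed the test (adjusted p = 0.0682). Both 7TGP-POS replicates gave a lower JUNB on their own, with -0.73 (adjusted p = 0.0279) without replicate 1 and -1.74 (adjusted p = 0.00131) without replicate 2, and the neighbouring genes again had a median of -0.40. JUNB and JUND are the most GC-rich of the 10 genes (64.9% and 69.9%), the property along which these replicates differed across genes. Among the 10 genes the ratio of replicate 2 to replicate 1 was lowest for ATF3, at 0.98, which also had the lowest GC content (46.7%). JUNB and JUND had 2.04 and 1.56. Genes of like GC content also differed, as IER3, at 58.5%, had 2.84 and FOSL1, at 58.7%, had 1.10. The part of GC content in the JUNB and JUND values was not tested.

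ATF3 in low serum had 73.4 and 78.5 CPM in MDA-MB-436 7TGP-NEG and 57.1 and 54.7 CPM in 7TGP-POS, a log2 fold change of -0.44 ± 0.06 (adjusted p = 7.2e-08). FOSL1 had 84.5 and 85.0 CPM against 76.3 and 70.8 CPM (-0.20 ± 0.05, adjusted p = 0.00163), and FOSL2 had 229.8 and 231 CPM against 203 and 202 CPM (-0.19 ± 0.05, adjusted p = 8.96e-04). In each of these 3 genes both 7TGP-POS values were below both 7TGP-NEG values.

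The other genes in low serum did not pass in MDA-MB-436. FOS had 15.1 and 15.0 CPM in 7TGP-NEG and 12.5 and 15.98 CPM in 7TGP-POS, EGR1 had 9.46 and 9.81 CPM against 8.71 and 10.4 CPM, and IER3 had 17.9 and 20.3 CPM against 16.9 and 18.8 CPM. The groups overlapped for FOS, EGR1 and IER3, and the same held for JUND at 95.9 and 104 CPM against 101 and 98.1 CPM. FOSB had 3.91 and 3.94 CPM against 2.78 and 3.88 CPM (log2 fold change -0.24), and JUN had 119 and 117 CPM against 128 and 127 CPM (0.11, adjusted p = 0.0541). JUN passed without MDA-MB-231 7TGP-POS replicate 1 or 2 (adjusted p = 0.0197 and 0.0198), and FOS and FOSB passed without MDA-MB-436 7TGP-POS replicate 2, at -0.30 (adjusted p = 0.033) and -0.53 (adjusted p = 0.036), but had 0.040 and -0.061 without replicate 1.

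In standard serum EGR1 had 56.4 and 58.4 CPM in MDA-MB-436 7TGP-NEG and 104 and 103 CPM in 7TGP-POS. It was 1.80-fold higher in 7TGP-POS (log2 fold change 0.85 ± 0.07, adjusted p = 3.48e-08), whereas in MDA-MB-231 it was 1.84-fold lower. The 50 genes nearest to EGR1 had a median of 0.37 in MDA-MB-436, below the value of EGR1 itself, and their part in the result was not tested.

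In standard serum FOSL1 had 154 and 153 CPM in MDA-MB-436 7TGP-NEG and 212 and 233 CPM in 7TGP-POS, a log2 fold change of 0.53 ± 0.08 (adjusted p = 1.17e-05). ATF3 had 75.4 and 72.4 CPM against 99.8 and 97.5 CPM (0.42 ± 0.07, adjusted p = 1.57e-04). Both genes were lower in 7TGP-POS in low serum and higher in standard serum, with groups that did not overlap in either condition.

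Also in standard serum, FOS had 34.8 and 35.1 CPM in MDA-MB-436 7TGP-NEG and 36.97 and 43.5 CPM in 7TGP-POS (log2 fold change 0.20, adjusted p = 0.117), and FOSB had 7.28 and 6.72 CPM against 8.32 and 9.15 CPM (0.32, adjusted p = 0.0814). FOSL2 had 120.2 and 120.2 CPM against 131 and 132 CPM (0.13, adjusted p = 0.118). JUN, at 165 and 198 CPM against 169 and 232 CPM, JUND, at 59.3 and 70.4 CPM against 47.1 and 73.4 CPM, and IER3, at 9.63 and 16.1 CPM against 6.82 and 19.4 CPM, overlapped between the lines. Without MDA-MB-436 7TGP-POS replicate 1, FOS passed at 0.30 (adjusted p = 0.0347) and JUN at 0.35 (adjusted p = 0.0106), and without its replicate 2, JUND passed at -0.47 (adjusted p = 0.00677). The opposite omission turned the sign of JUN (-0.10 without replicate 2) and of JUND (0.16 without replicate 1).

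The second comparison asked whether the reporter responses of the lines differed, as the difference of their log2 fold changes (MDA-MB-231 minus MDA-MB-436) with its own test. In standard serum the responses of FOS, FOSB, EGR1, FOSL1 and FOSL2 were lower in MDA-MB-231, and in low serum those of IER3, JUNB, FOSL2, FOSB and ATF3 were higher. In standard serum 5 of the 10 genes passed, all lower, where 41.2% of all tested genes passed (22.4% lower), and 3 were DEGs, where 13.8% of all were DEGs and 6.81% were DEGs lower in MDA-MB-231. In low serum 5 passed, all higher, where 45.7% passed (21.1% higher), and 1 was a DEG, where 11.7% were DEGs and 4.72% were DEGs higher.

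FOS differed by -2.14 ± 0.15 (SE) on the log2 scale in standard serum (adjusted p = 7.7e-09), FOSB by -1.98 ± 0.22 (adjusted p = 1.04e-06) and EGR1 by -1.73 ± 0.11 (adjusted p = 5.5e-10). For these 3 genes the MDA-MB-231 response was negative and the MDA-MB-436 response positive, though for FOS and FOSB the latter did not pass on its own. The 50 nearest genes had medians of -0.26 for FOS, 0.24 for FOSB and -0.44 for EGR1, and their part was not tested. FOSL1 differed by -0.75 ± 0.11 (adjusted p = 1.81e-05), with a negative response in MDA-MB-231 and a positive one in MDA-MB-436. FOSL2 differed by -0.28 ± 0.09 (adjusted p = 0.0255) and lost this call without either MDA-MB-231 7TGP-NEG replicate, either MDA-MB-436 7TGP-NEG replicate or MDA-MB-231 7TGP-POS replicate 2 (adjusted p = 0.0599 to 0.12).

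JUNB differed by 1.09 in standard serum (adjusted p = 0.188), IER3 by 1.38 (adjusted p = 0.247), JUND by 0.48 (adjusted p = 0.306) and JUN by 0.29 (adjusted p = 0.348). These values turned on the MDA-MB-436 7TGP-POS replicates. Without replicate 1 they were 0.67, 0.80, 0.20 and 0.085, and none passed. All 4 passed without replicate 2, with JUNB at 1.69 (adjusted p = 0.00373), IER3 at 2.30 (adjusted p = 0.0224), JUND at 0.83 (adjusted p = 0.00116) and JUN at 0.53 (adjusted p = 0.00434). The ATF3 responses, 0.49 and 0.42, differed by 0.07 (adjusted p = 0.651).

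In low serum IER3 differed by 1.00 ± 0.10 (adjusted p = 8.4e-11), and JUNB by 0.88 ± 0.07 (adjusted p = 1.3e-13). FOSL2 differed by 0.64 ± 0.07 (adjusted p = 1.3e-10), with a positive response in MDA-MB-231 and a negative one in MDA-MB-436. ATF3 differed by 0.60 ± 0.13 (adjusted p = 1.08e-04). FOSB differed by 0.63 ± 0.25 (adjusted p = 0.0344), a call kept only without MDA-MB-231 7TGP-POS replicate 2 or MDA-MB-436 7TGP-POS replicate 2 and lost without any of the other 6 libraries (adjusted p = 0.0517 to 0.166). FOS, FOSL1, JUN, JUND and EGR1 did not pass in low serum, with differences of 0.25, -0.14, 0.06, 0.00 and -0.22.

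**Figure D4:**
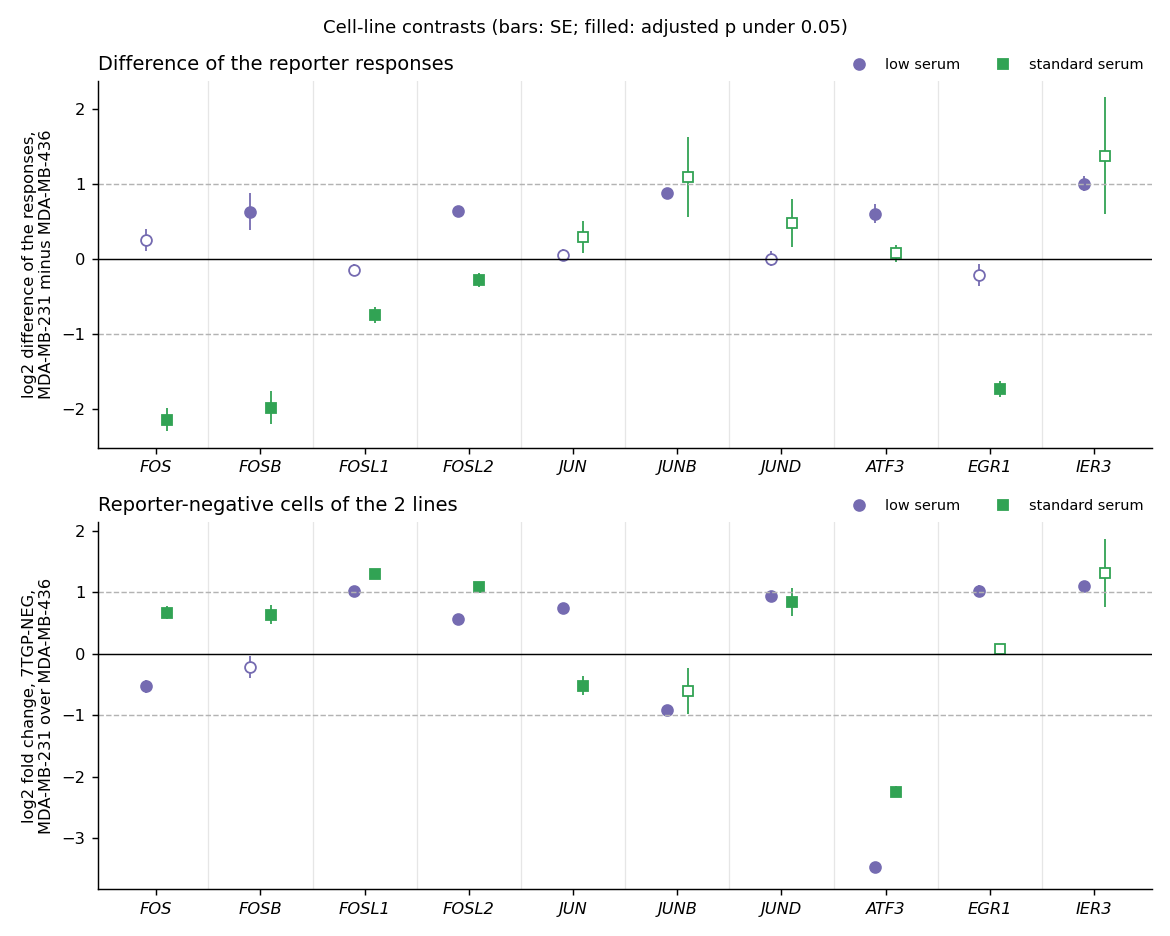
Top, difference of the reporter responses (log2, MDA-MB-231 minus MDA-MB-436) for each gene in low serum (circles) and standard serum (squares). Bottom, log2 fold change of MDA-MB-231 7TGP-NEG over MDA-MB-436 7TGP-NEG. Bars are standard errors and filled symbols have an adjusted p under 0.05. FOS, FOSB and EGR1 sat at -2.14, -1.98 and -1.73 in standard serum in the top panel, and ATF3 sat lowest in both conditions in the bottom panel.

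The third comparison set the reporter-negative cells of the lines against each other. MDA-MB-231 7TGP-NEG cells had less ATF3 than MDA-MB-436 7TGP-NEG cells, 11.1-fold less in low serum and 4.72-fold less in standard serum, and more FOSL1, 2.03-fold and 2.46-fold. In low serum 9 of the 10 genes passed, 6 higher and 3 lower, where 79.2% of all tested genes passed (39.6% higher and 39.6% lower), and 4 were DEGs, 3 higher and 1 lower, where 41.9% were (20.5% higher and 21.4% lower). In standard serum 7 passed, 5 higher and 2 lower, where 78.8% passed (37.3% higher and 41.4% lower), and 3 were DEGs, 2 higher and 1 lower, where 46.7% were (21.3% higher and 25.4% lower).

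ATF3 had the largest difference of the 10 genes, with a log2 fold change of -3.47 ± 0.08 (adjusted p = 4.7e-33) in low serum and -2.24 ± 0.08 (adjusted p = 1.8e-14) in standard serum. FOSL1 had 1.02 ± 0.05 (adjusted p = 7.2e-21) and 1.30 ± 0.08 (adjusted p = 1.5e-11). FOSL2 had 0.57 (adjusted p = 2.9e-14) and 1.08 ± 0.07 (adjusted p = 4.3e-11). With deposited TPM its low serum value was 0.17 and did not pass. The median shift of tested genes at a mean of 1 CPM or more was then -0.40. The abundant FOS genes were therefore higher and the stress factor ATF3 lower in MDA-MB-231 7TGP-NEG cells, with that exception for FOSL2.

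FOS was lower in MDA-MB-231 7TGP-NEG in low serum (log2 fold change -0.53, adjusted p = 2.03e-05) and higher in standard serum (0.67, adjusted p = 1.44e-05), and JUN was higher in low serum (0.75, adjusted p = 2.9e-17) and lower in standard serum (-0.52, adjusted p = 0.0180). The standard serum call for JUN was lost without MDA-MB-231 7TGP-NEG replicate 1 or 2 or MDA-MB-436 7TGP-NEG replicate 2 (adjusted p = 0.0622 to 0.0794). JUNB was lower (-0.92, adjusted p = 3.4e-20) and JUND higher (0.94, adjusted p = 7.8e-10) in low serum. In standard serum JUNB had -0.60 (adjusted p = 0.207), and it passed without either MDA-MB-436 7TGP-POS replicate (-0.61, adjusted p = 0.0129). JUND had 0.84 (adjusted p = 0.0185) and missed the test without MDA-MB-231 7TGP-NEG replicate 1 or 2 or MDA-MB-436 7TGP-NEG replicate 1 (adjusted p = 0.0632 to 0.0883).

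EGR1 was 2.03-fold higher in MDA-MB-231 7TGP-NEG in low serum (log2 fold change 1.02 ± 0.10, adjusted p = 3.2e-12) and had 0.09 in standard serum (adjusted p = 0.303). IER3 had 1.10 ± 0.07 (adjusted p = 2.4e-17) in low serum and 1.31 in standard serum (adjusted p = 0.0907), which passed without MDA-MB-436 7TGP-POS replicate 1 or 2 (adjusted p = 0.0155 and 0.0152). FOSB had -0.21 (adjusted p = 0.266) and 0.64 (adjusted p = 7.13e-04). In low serum the 50 nearest tested genes had medians of 1.14 for IER3, 0.84 for FOSL2, 0.65 for JUND and 0.62 for EGR1. In standard serum the medians were 0.72 for FOS, 0.69 for FOSB, 0.78 for FOSL2, 0.55 for JUND and 0.90 for IER3. For FOSL1 (-0.29 and -0.54) and JUNB (0.85 and 0.46) they had the opposite sign to the gene. The same held in low serum for FOS (0.60), FOSB (0.63) and JUN (-0.30). The standard serum medians for JUN (-0.38) and EGR1 (0.58) had the sign of the gene. For ATF3 they were -0.30 and -0.24. The part of these regions was not tested.

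Within each serum condition, the order of the 4 groups by CPM differed between genes. In standard serum FOS was lowest in the 7TGP-POS cells of MDA-MB-231, followed by the 7TGP-NEG and then the 7TGP-POS cells of MDA-MB-436, and highest in the 7TGP-NEG cells of MDA-MB-231, with no overlap between neighbours, and FOSB followed the same order, its MDA-MB-436 7TGP-POS replicate 2 (9.15 CPM) reaching into MDA-MB-231 7TGP-NEG (9.11 CPM at its lowest). EGR1 was lowest in MDA-MB-231 7TGP-POS, followed by the 7TGP-NEG cells of MDA-MB-436 and of MDA-MB-231, and highest in MDA-MB-436 7TGP-POS, without overlap. ATF3 was lower in both MDA-MB-231 groups than in both MDA-MB-436 groups in either serum condition. IER3 was lower in both MDA-MB-436 groups, whose values overlapped, than in both MDA-MB-231 groups, and the same held in low serum.

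Related genes put these values in context. As their background in MDA-MB-231, 19.0% of all tested genes were higher and 19.9% lower in low serum, and 16.8% higher and 16.2% lower in standard serum. In MDA-MB-436 the shares in low serum were 26.6% and 25.3%, and those in standard serum were 26.1% and 23.4%. DEGs were rarer. Among the 16069 genes tested with low serum, MDA-MB-231 had 563 DEGs higher and 385 lower. MDA-MB-436 had 1047 and 647 there. Among the 15414 tested with standard serum, MDA-MB-231 had 765 DEGs higher and 420 lower, and MDA-MB-436 had 998 and 934. The first list held 35 other immediate-early genes, such as the EGR, NR4A, KLF and IER families. In MDA-MB-231 in standard serum, 5 were higher and 14 lower in 7TGP-POS, with a median log2 fold change of -0.08 against 0.00 over all tested genes. Its 2 DEGs were EGR2, a relative of EGR1, at -1.89 (adjusted p = 0.00372), and NR4A3, an orphan nuclear receptor, at -1.27 (adjusted p = 0.0101), both at under 1 CPM in this line.

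In low serum the same list had 9 higher and 13 lower in the 7TGP-POS cells of MDA-MB-231 (median -0.10), with EGR4 at -1.11 the 1 DEG (adjusted p = 0.0498). In MDA-MB-436, 8 were higher and 16 lower in low serum (median -0.18) and 11 higher and 9 lower in standard serum (median 0.13). CCN2, a matricellular gene that YAP and SRF cofactors also drive, was higher in the 7TGP-POS cells of MDA-MB-436 in both conditions (2.51 and 3.11). CCN1, its relative (2.11), and PPP1R15A, a stress-response phosphatase subunit (1.12), were DEGs in standard serum, TRIB1 (1.02) was one in low serum, and EGR4 was lower in both (-2.54 and -1.24).

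The difference of the responses in standard serum was lower in MDA-MB-231 for 17 of the 35 genes and higher for 2, with a median of -0.34 against -0.01 over all tested genes, and 7 of the 17 were DEGs. Of all tested genes, 22.4% were lower, 18.8% higher and 6.81% DEGs lower in that comparison.

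Genes upstream of the 10 were represented by 25 MAP kinase, SRF and CREB pathway genes. In MDA-MB-231 7TGP-POS, 4 were higher and 7 lower in low serum (median 0.04) and 4 higher and 5 lower in standard serum (median -0.02), with no DEG. Genes that passed in both conditions are named here, a choice made after their values were seen. Lower in both low and standard serum were SRF (-0.55 and -0.71), its partner ELK3 (-0.47 and -0.63) and the kinases MAP2K1 (-0.34 and -0.34) and MAPK14 (-0.20 and -0.32). Higher in both were the kinases MAP3K1 (0.98 and 0.28) and MAPK7 (0.36 and 0.87) and the factor CREB1 (0.14 and 0.25). In MDA-MB-436, 5 were higher and 10 lower in low serum (median -0.08), and 6 higher and 7 lower in standard serum (median 0.03), and the kinase gene RPS6KA5 (1.2004) was the 1 DEG.

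Of 18 further bZIP genes that can pair with AP-1 proteins or bind related sites, 10 were higher and 3 lower in the 7TGP-POS cells of MDA-MB-231 in low serum (median 0.17), and 6 were higher and none lower in standard serum (median 0.12), without a DEG. In MDA-MB-436, 3 were higher and 9 lower in low serum (median -0.12) and 4 higher and 5 lower in standard serum (median -0.01). MAFK, a small MAF protein without a transactivation domain, was higher in 7TGP-POS (1.13 and 1.28), while the large MAF gene MAF was lower in both conditions (-1.05 and -1.91), and BATF2 was lower in standard serum (-2.01).

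A further list held genes commonly named as AP-1-responsive. In MDA-MB-231 in standard serum 11 of 22 tested were higher and 4 lower in 7TGP-POS (median 0.22). Of the 22, 8 were DEGs higher, where 765 of all 15414 tested genes were, and 1 was a DEG lower, where 420 were. Those higher included PTGS2, the inducible cyclooxygenase (3.37), the cytokine IL6 (3.07), the chemokine CXCL8 (2.58) and the collagenase MMP1 (2.13). The 1 lower was the protease inhibitor TIMP1 (-1.06). In low serum 12 of 23 were higher and 3 lower (median 0.44), with CXCL8 at 3.71, PTGS2 at 2.89, IL6 at 2.85, IL11 at 2.36 and MMP1 at 1.73. Many of these genes also respond to NF-kB and other factors.

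In MDA-MB-436, 8 AP-1-responsive genes were higher and 8 lower in low serum (median 0.21), and 8 higher and 4 lower in standard serum (median 0.29). IL11 (3.34 and 3.97), CXCL8 (1.46 and 2.43) and MMP1 (1.29 and 1.03) were DEGs higher in 7TGP-POS in both conditions. MMP1 was at most 3.99 CPM on average in MDA-MB-436, against 452 CPM in MDA-MB-231 7TGP-NEG in low serum. The urokinase receptor PLAUR (-1.65) and the haem oxygenase HMOX1 (-1.51) were lower in standard serum, and EREG (-1.22) was lower in low serum.

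**Figure D5:**
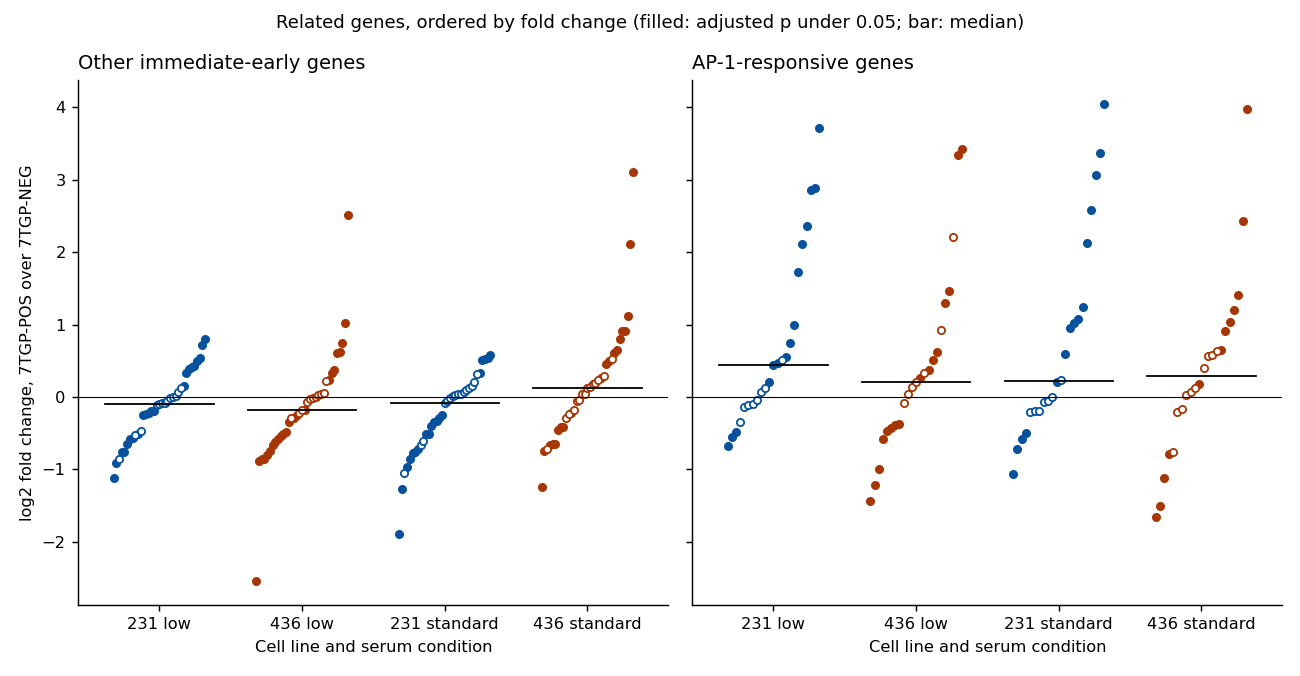
Log2 fold change of 7TGP-POS over 7TGP-NEG for other immediate-early genes (left) and AP-1-responsive genes (right), ordered by value within each cell line and serum condition. Filled points have an adjusted p under 0.05 and bars are medians. The medians of the AP-1-responsive genes lay at 0.44 and 0.22 in MDA-MB-231 and at 0.21 and 0.29 in MDA-MB-436, and those of the immediate-early genes between -0.18 and 0.13.

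Other markers moved with the sorted lines. Of 10 heat-shock genes, which handling and stress raise alongside immediate-early genes, none was higher and 3 were lower in the 7TGP-POS cells of MDA-MB-231 in standard serum (median -0.17), and 1 was higher and 4 lower in low serum (median -0.09). In MDA-MB-436 7TGP-POS, 1 was higher and 8 lower in standard serum (median -0.70), and 2 higher and 2 lower in low serum (median -0.08). The DEGs lower in standard serum were HSPE1, the mitochondrial co-chaperonin gene (-1.39), the co-chaperone gene DNAJB1 (-1.02) and HSPA1A, which was at 0.195 CPM in 7TGP-NEG and 0.0255 CPM in 7TGP-POS, the latter with no more than 3 counts in either library. HSPB1, a small heat-shock protein gene, was at 0.389 CPM in MDA-MB-436 7TGP-NEG and 276 CPM in 7TGP-POS in low serum, and at 0.184 and 187 CPM in standard serum. Their part in the results on the 10 genes was not tested.

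Summed over 8 mesenchymal markers, MDA-MB-231 7TGP-NEG libraries had 7020 to 7724 CPM and 7TGP-POS libraries 3162 to 3336 CPM in standard serum, and 6998 to 7214 and 4144 to 4303 CPM in low serum. These sums were carried by VIM, an intermediate filament gene at 5520 and 2699 CPM in standard serum, and the fibronectin gene FN1, at 1689 and 384 CPM. Counted by gene, 2 markers were higher and 2 lower in standard serum (median log2 fold change 0.22) and 3 higher and 1 lower in low serum (median 0.29), so the sums and the medians had opposite signs. In MDA-MB-436 the sums were higher in 7TGP-POS, with 997 to 1051 against 1483 to 1500 CPM in standard serum and 1204 to 1235 against 1563 to 1601 CPM in low serum, and 5 markers were higher in each condition, with 1 lower in standard serum and 2 lower in low serum. Summed over 9 epithelial markers, MDA-MB-231 7TGP-NEG libraries had 1600 to 1682 CPM and 7TGP-POS libraries 1191 to 1282 CPM in standard serum, with none higher and 5 lower. In low serum they had 1821 to 1929 and 1333 to 1386 CPM, again with none higher and 5 lower. MDA-MB-436 had 817 to 835 CPM in 7TGP-NEG and 928 to 1020 CPM in 7TGP-POS in low serum, with 2 higher and 1 lower. In standard serum it had 736 to 742 and 646 to 769 CPM, with none higher and 1 lower. Their part was not tested either.

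Wnt feedback genes, 10 in number, stand for the pathway the reporter reads. In MDA-MB-231 7TGP-POS, 5 were higher and 1 lower in low serum, with the R-spondin receptor LGR5 at 1.40, and 1 was higher and 1 lower in standard serum, with RNF43 at 1.11. In MDA-MB-436 7TGP-POS, 3 were higher and 2 lower in low serum and 2 were higher and 2 lower in standard serum, and the Wnt antagonist DKK1 was higher in both (2.11 and 1.78). The other DEGs there were lower, namely the feedback inhibitor NKD1 in low serum (-1.21), and in standard serum the transcription factor SP5 (-1.13) and RNF43, which was at 0.263 CPM in 7TGP-NEG and 0.0485 CPM in 7TGP-POS, the latter with no more than 3 counts in either library.

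Across the 8 group means, the gene whose centred log2 CPM lay nearest to FOS and to FOSB, of 15276 candidates, was ALDH1A2, which encodes a retinaldehyde dehydrogenase (distances 0.59 and 0.58). FOSL1 lay nearest to CEP290 (0.20), FOSL2 to CISD2 (0.24), JUN to TEAD2 (0.32) and JUNB to IDH1 (0.25). JUND lay nearest to HOOK2 (0.18), ATF3 to MEIS3 (0.59), EGR1 to CENPU (0.43) and IER3 to an unnamed coding gene (0.37), followed by INSL4 (0.52). HOOK2 lies on chromosome 19 and overlaps JUNB on the opposite strand. These are descriptions over 8 points that share libraries and scaling.

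Some of the 10 genes overlap others. FOSB overlaps ERCC1 and IER3 overlaps the long non-coding RNAs IER3-AS1 and HCG20, all on the opposite strand. FOSL2 overlaps FOSL2-AS1 on the opposite strand and 1 long non-coding RNA on the same strand. The library kits mark the strand, but the strand setting of the counting is not given in the sources used here, so reads of such pairs may not be fully separated.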

How the data were processed

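Total RNA of 4 sorted lines in 2 serum conditions was sequenced in duplicate (16 libraries). Per the study's methods, reads were aligned to hg19 with STAR, and the authors deposited raw gene counts and TPM for each serum condition (57820 genes, no columns without a sample), unfiltered and not pooled; how TPM was derived is not given in the sources used here.

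Groups came from the sample titles. Protein-coding genes whose 8 libraries held 10 counts or more together were fitted within each serum condition with edgeR 4.0.16 in R 4.3.3 (TMM, robust quasi-likelihood, 4 groups) and adjusted by Benjamini-Hochberg. DESeq2 1.42.0 and limma 3.58.1 on log2(TPM + 1) or log2(TPM + 0.1) served as alternatives, besides other filters, a replicate block, single libraries left out, 4 libraries of 1 line, and, chosen after the data were seen, removal of a GC trend. Scripts were tested on simulated counts with 200 changed genes. Coordinates are from a GENCODE annotation on GRCh37; promoters are from RefSeq (GRCh38.p14). Members had 83 to 12495 counts per library. In the reporter comparisons the standard error from counting alone was 5.1 to 95.5% as large as the fitted standard error. The tables hold no comparisons of the authors.

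The 10 genes, the related lists and the tests were chosen with earlier results of these data known. Named in the text were all 10 genes, at most 5 DEGs per related list and comparison by adjusted p, and the genes nearest to each member, with exceptions stated; values of a further gene that the rule names are not reported here. Nearest means the smallest Euclidean distance over 8 group means of log2 CPM, centred within a serum condition.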

Additional observations from a re-analysis of the deposited data

Results flagged for a closer look

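For 4 gene and serum combinations the reporter responses of the cell lines differed by at least 1 on the log2 scale, by a test of the difference itself (edgeR's quasi-likelihood test, adjusted over all tested genes). In standard serum FOS differed by -2.14 (MDA-MB-231 minus MDA-MB-436, adjusted p = 7.7e-09), FOSB by -1.98 (adjusted p = 1.04e-06) and EGR1 by -1.73 (adjusted p = 5.5e-10). In low serum IER3 differed by 1.00 (adjusted p = 8.4e-11), and this value ranged from 0.91 to 1.12 when single libraries were left out. With FOS, the 4 MDA-MB-231 libraries moved from 57.0 and 53.9 CPM in 7TGP-NEG to 12.8 and 16.1 CPM in 7TGP-POS, and those of MDA-MB-436 from 34.8 and 35.1 to 36.97 and 43.5 CPM.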

How the results depend on the processing

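Depth limited the low-count genes: in MDA-MB-231 in low serum the counting error alone would give a log2 standard error of 0.144 for FOSB and 0.105 for ATF3, against fitted values of 0.175 and 0.11. Only 2 cultures per group of lines sorted once limit all of them. In standard serum the MDA-MB-436 replicates set much of the spread of IER3, JUNB, JUND and JUN. The gap was widest in 7TGP-POS, whose replicates also differ along GC content, and 7TGP-NEG replicates differed in the same direction. The calls on FOS, FOSB and EGR1 in MDA-MB-231 in standard serum, and on their cell-line differences, held under every alternative run, as did IER3 in MDA-MB-231 and JUNB and ATF3 in MDA-MB-436 in low serum.

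Of the 80 member values, 73 kept their direction and side of the threshold with DESeq2, 78 with its size factors and with another filter, 80 with a filter of at least 1 count, 65 with the GC trend removed, 61 and 62 with TPM (pseudocount 0.1 and 1), and 74 with a replicate block. Of the 40 values that could be refitted on 4 libraries, 32 did.

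Neither the labels nor the data established that replicate numbers pair the cultures: same-numbered deviations correlated at -0.126 to 0.0324 (low) and -0.0312 to 0.213 (standard), where 4 of 6 pairs of groups were over 0.1 and the others were not. With the replicate block EGR1 in MDA-MB-231 in low serum was lost (adjusted p = 0.056), and JUN (0.0125) and JUND (0.0377) in MDA-MB-231, JUNB in MDA-MB-436 (0.0344), the JUND cell-line difference (0.0405) and IER3 between the 7TGP-NEG lines (0.0482), all in standard serum, passed.

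With log2(TPM + 1) the DEGs numbered 302 for MDA-MB-231 and 793 for MDA-MB-436 in low serum, 1117 for the difference of the lines in low serum, and 522 and 941 for MDA-MB-231 and MDA-MB-436 in standard serum, against 948, 1694, 1884, 1185 and 1932. The share of higher calls among those that passed went from 49.0 to 20.6% and from 51.2 to 23.1% in low serum, from 52.8 to 63.1% for MDA-MB-436 in standard serum and from 50 to 34.6% between the 7TGP-NEG lines in low serum. Among DEGs, with log2(TPM + 0.1), it went from 59.4 to 42.7%, from 61.8 to 43.8% and from 48.9 to 32.2% in the low serum comparisons of MDA-MB-231, MDA-MB-436 and the 7TGP-NEG lines. With TPM, 3 of the 10 genes passed in MDA-MB-231 in low serum and 5 in MDA-MB-436 in standard serum, the latter count also with the GC trend removed. Fitted on its 4 libraries, MDA-MB-231 in standard serum had 8.

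Directions turned in values near 0. With TPM, in low serum, FOS (-0.027 and -0.030), JUN (-0.0299 and -0.0301), JUNB (-0.12) and ATF3 (-0.032 and -0.040) in MDA-MB-231 and JUN (-0.13) in MDA-MB-436 fell below 0, as did EGR1 between the 7TGP-NEG lines in standard serum (-0.080 and -0.081) and the ATF3 cell-line difference in standard serum (-0.0075). JUND in MDA-MB-231 in low serum was 0.0066 with DESeq2 and 0.0069 with its size factors, 0.0033 with another filter, 0.022 in 4 libraries and 0.19 with the GC trend removed. With the GC trend removed, JUND in MDA-MB-436 was 0.013 (low) and 0.12 (standard), and IER3 in MDA-MB-436 in standard serum was 0.041, or 0.025 in 4 libraries. The cause was not tested.

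Leaving out single libraries turned JUND in low serum (-0.14 to 0.12 in MDA-MB-231, -0.074 to 0.052 in MDA-MB-436, -0.13 to 0.12 for their difference), EGR1 (-0.18 to 0.065) and FOS (-0.30 to 0.040) in MDA-MB-436 in low serum, and IER3 (-0.93 to 0.56), JUN (-0.10 to 0.35) and JUND (-0.47 to 0.16) in MDA-MB-436 in standard serum. The number of the 10 genes that passed then ranged from 4 to 9 in MDA-MB-231, from 3 to 6 in MDA-MB-436 and from 4 to 9 for the difference of the lines in standard serum, with the highest counts when an MDA-MB-436 7TGP-POS replicate was left out.

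By raw counts the FOSL1 share of the FOS family was 32.6, 21.8, 25.4 and 25.1% (low) and 54.1, 56.8, 48.7 and 55.2% (standard) (MDA-MB-231 7TGP-NEG, 7TGP-POS, MDA-MB-436 7TGP-NEG, 7TGP-POS), and the JUNB share of the JUN genes was 28.6, 28.6, 57.6 and 43.0% and 37.5, 30.5, 47.2 and 27.0%. The change is that of removing the length adjustment.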
